A study of Mus musculus with 6 samples.

Results

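The genes described here are the oxidant-response regulator NRF2, encoded by Nfe2l2, its inhibitor Keap1, and 8 antioxidant and thiol-metabolism genes, namely Nqo1, Hmox1, Gclc, Gclm, Txnrd1, Srxn1, Prdx1 and Slc7a11. They were found by their symbols in the deposited gene table, and each matched 1 Ensembl identifier, so that 10 of 34724 genes are described. All 10 passed the filter on low counts. The table holds read counts from direct RNA sequencing on a nanopore instrument, in which poly(A) RNA is read without conversion to cDNA. The 2 groups are mouse cell lines with 3 libraries each. 2H-11 is labelled as tumor endothelial cells and SVEC4-10 as normal endothelial cells. Both are given as SV40-transformed adult lines from the axillary lymph node of strain C3H/HeJ, with no treatment named. With 1 line standing for each status, the status cannot be told apart from whatever else sets these lines apart.

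NRF2 is a transcription factor that is held in the cytoplasm by KEAP1, an adaptor that brings it to the CUL3 ubiquitin ligase for destruction. When reactive cysteines of KEAP1 are modified by oxidants or electrophiles, NRF2 escapes, pairs with small MAF proteins and binds antioxidant response elements near genes for glutathione and thioredoxin metabolism, quinone and heme breakdown and NADPH supply. Because this switch works mainly on the protein, the mRNA level of Nfe2l2 is not a readout of its activity. Several of the targets have other regulators as well: Hmox1 is also held down by BACH1, and Slc7a11 is also driven by ATF4 under amino acid shortage.

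Promoter sequence was taken from the RefSeq table on GRCm38.p6, which matched 8 of the 10 genes (Hmox1 and Gclc were not among them). It was searched on both strands for TGACNNNGC, the core of the antioxidant response element. In windows of 300 bases, from 250 before to 50 after the start, 5 of these 8 genes held a match, namely Gclm, Nfe2l2, Prdx1, Srxn1 and Txnrd1. Among all 32851 windows, 12.4% held one, and 14% of the 27025 genes with a window. The first 3 sequences below show matches in genes of glutathione, thioredoxin and peroxide metabolism. They run 5′ to 3′ on the strand of the gene up to the base before the start, and capitals mark the match, which lies on the opposite strand in all 3. The Txnrd1 sequence belongs to 1 of 3 listed starts, the other 2 of which held no match. The Slc7a11 promoter held no such match, and its capitals mark instead 2 matches to TTNCATCA, the core of the element bound by ATF4 with C/EBP partners, 1 on each strand. That motif, searched for after the data had been seen, was present in 3.97% of all windows and does not overlap TGACNNNGC in the sequences shown. These matches describe the letters only.
Txnrd1 (chr10:82858956-82859205, plus strand): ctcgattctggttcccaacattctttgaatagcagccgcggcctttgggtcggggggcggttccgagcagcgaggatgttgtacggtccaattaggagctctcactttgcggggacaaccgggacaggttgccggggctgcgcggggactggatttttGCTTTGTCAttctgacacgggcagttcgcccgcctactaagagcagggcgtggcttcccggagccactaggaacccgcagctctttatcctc
Prdx1 (chr4:116685349-116685598, plus strand): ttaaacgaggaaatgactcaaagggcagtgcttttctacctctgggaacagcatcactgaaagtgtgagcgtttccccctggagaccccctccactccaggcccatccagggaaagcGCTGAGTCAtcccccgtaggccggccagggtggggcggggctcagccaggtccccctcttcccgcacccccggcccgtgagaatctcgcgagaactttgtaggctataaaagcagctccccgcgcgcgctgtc
Gclm (chr3:122245307-122245556, plus strand): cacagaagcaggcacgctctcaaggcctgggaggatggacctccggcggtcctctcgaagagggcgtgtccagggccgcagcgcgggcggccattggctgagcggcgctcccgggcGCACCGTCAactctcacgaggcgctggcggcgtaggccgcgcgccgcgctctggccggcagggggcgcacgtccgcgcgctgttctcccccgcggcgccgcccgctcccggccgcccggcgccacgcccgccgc
Slc7a11 (chr3:50443614-50443863, minus strand): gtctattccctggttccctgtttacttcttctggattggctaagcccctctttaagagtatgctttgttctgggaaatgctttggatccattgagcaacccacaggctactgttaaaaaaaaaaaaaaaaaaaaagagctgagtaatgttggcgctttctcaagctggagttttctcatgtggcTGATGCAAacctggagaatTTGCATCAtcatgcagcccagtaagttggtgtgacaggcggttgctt

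Total counts ran from 3628400 to 16798666 per library, and SVEC4-10 replicate 3 was 4.63 times as deep as the shallowest. One count corresponds to 0.0595 to 0.276 CPM (counts per 1000000 counts of the library), the unit of all levels below. Values after ± are SDs over 3 libraries. The labels do not state whether the 3 libraries of a line were grown as separate cultures; the p-values therefore reflect spread among libraries that may be technical alone. In a bulk library, fewer cells expressing a gene and less RNA per cell cannot be told apart. Most of 14 endothelial markers were absent or scarce. Tie1, Vwf, Cldn5, Erg, Emcn and Icam2 went uncounted, and 10 of the 14 stayed under 1 CPM throughout. The 14 summed to 58.5 to 71.4 CPM in 2H-11 and to 3.97 to 6.01 CPM in SVEC4-10. Most of the 2H-11 sum was 1 gene, Ecscr, at 54.9, 45.3 and 42.9 CPM, against 0, 0.276 and 0 CPM in SVEC4-10. The summed level of 6 mesothelial markers was 41.5 to 45.1 CPM in 2H-11 and 3397 to 4292 CPM in SVEC4-10. The part of these marker differences in the results below was not tested.

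Nqo1 and Slc7a11 were higher in 2H-11 and Hmox1 and Txnrd1 were lower, which makes 2 of the 10 genes in each direction, and 6 did not pass the threshold. The test was edgeR's quasi-likelihood test with a Benjamini-Hochberg adjusted p of 0.05 as threshold, over 13187 genes. Among all genes tested, 36.2% passed it, 20.1% as higher and 16.2% as lower, so 4 of 10 is near the background. Among the 10149 Ensembl genes tested, the corresponding shares were 31.8%, 13.0% and 18.8%. Libraries of the lines did not overlap for the same 4 of 10 genes, beside 46.8% of all genes tested. Log2 fold changes, given throughout as 2H-11 over SVEC4-10, had a median of 0.03 over the 10 genes, of 0.0025 over all genes tested and of -0.10 over the Ensembl genes. The plot of levels by library shows the 4 separated genes beside the 6 that overlap.

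**Figure D1:**
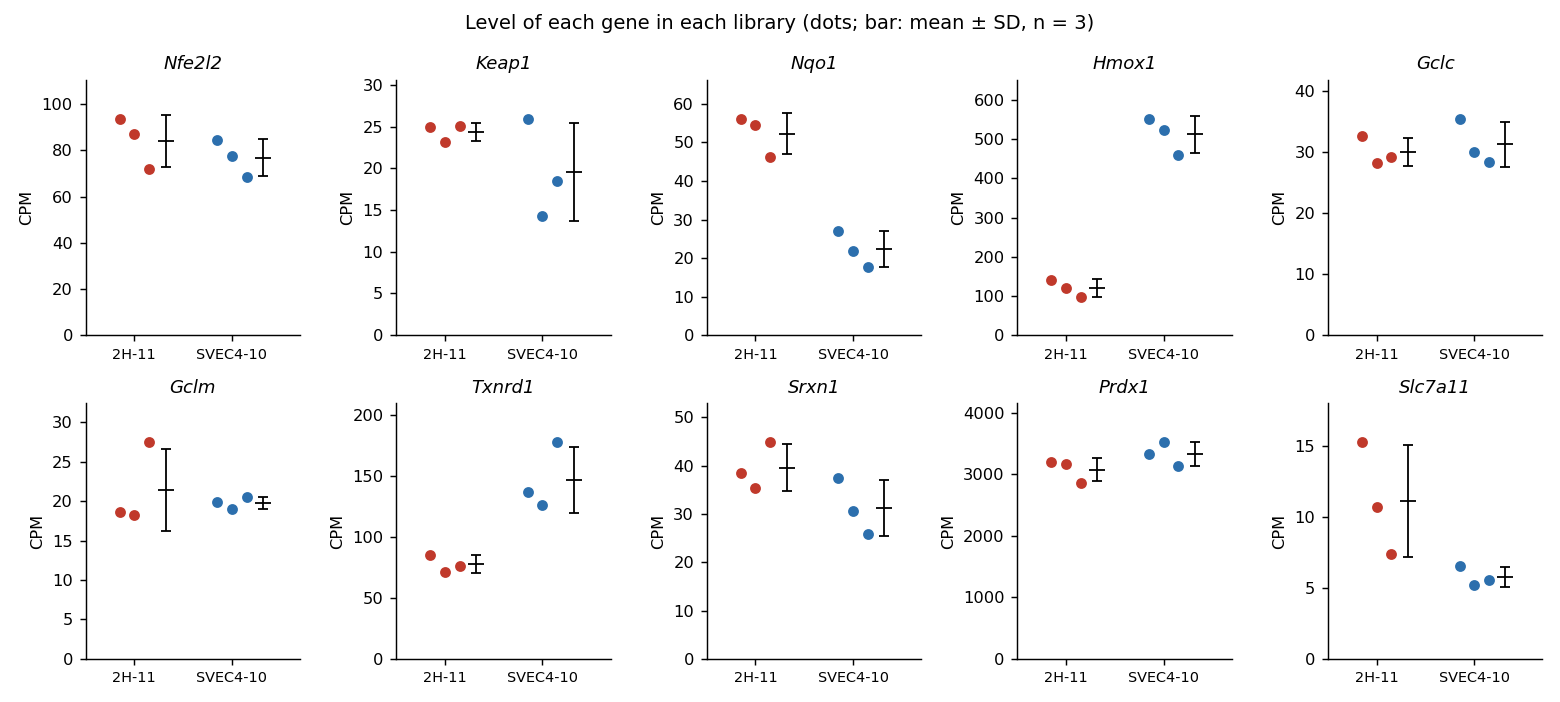
Level in CPM (vertical axis, from 0) of each of the 10 genes in each library of 2H-11 (red dots) and SVEC4-10 (blue dots), with the mean and SD of each line (black, n = 3). The libraries of Nqo1, Slc7a11, Hmox1 and Txnrd1 do not overlap between the lines, whereas those of the other 6 genes do.

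The mRNAs of the regulator and its inhibitor were at similar levels in both lines. Nfe2l2 (ENSMUSG00000015839, chromosome 2, 75675513 to 75704641 in GRCm38, minus strand) stood at 93.8, 87.0 and 71.9 CPM in 2H-11 and at 84.4, 77.7 and 68.3 CPM in SVEC4-10. The highest library belonged to 2H-11 and the lowest to SVEC4-10, with the others interleaved. The log2 fold change was 0.04 (SE 0.18, 95% interval -0.34 to 0.42, edgeR adjusted p = 0.891). Keap1 (ENSMUSG00000003308, chromosome 9, 21229730 to 21239361, minus strand) stood at 24.9, 23.1 and 25.1 CPM in 2H-11 and at 25.9, 14.3 and 18.5 CPM in SVEC4-10. The 3 libraries of 2H-11 lay close together, with a coefficient of variation of 4.4%, whereas SVEC4-10 spread over 30.1% and enclosed them from above and below. Its log2 fold change was 0.24 (SE 0.23, 95% interval -0.25 to 0.72, edgeR adjusted p = 0.46). Both intervals leave room for differences of moderate size in either direction.

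Hmox1 showed the largest difference of the 10 genes and was lower in 2H-11. It encodes heme oxygenase 1 (ENSMUSG00000005413, chromosome 8, 75093621 to 75100589, plus strand), which opens the heme ring to release iron, carbon monoxide and biliverdin. Its level was 142, 119.8 and 96.3 CPM in the 3 libraries of 2H-11 and 552, 524 and 460.0 CPM in those of SVEC4-10. The lowest library of SVEC4-10 was thus far above the highest of 2H-11. With means of 119.3 ± 22.7 and 512 ± 47.3 CPM, Hmox1 was 4.59-fold lower in 2H-11 (log2 fold change -2.20, SE 0.18, 95% interval -2.57 to -1.83, edgeR adjusted p = 1.51e-08). Over 18 alternative settings the log2 fold change ran from -2.35 to -2.09 and passed the threshold in each. Macrophages are rich in this enzyme; of 6 macrophage and leukocyte markers, Adgre1 and Itgam had no count in any library. Their sum was 3.91 to 7.04 CPM in 2H-11 and 3.33 to 8.82 CPM in SVEC4-10.

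Txnrd1 moved in the same direction by a smaller step. It encodes the cytosolic thioredoxin reductase, a selenoenzyme that passes electrons from NADPH to thioredoxin (ENSMUSG00000020250, chromosome 10, 82833951 to 82897712, plus strand). Its level was 85.2, 70.9 and 75.9 CPM in 2H-11 against 136, 126 and 177 CPM in SVEC4-10. All libraries of SVEC4-10 were above those of 2H-11, and the deepest library, replicate 3, was the highest. Txnrd1 was 2.025-fold lower in 2H-11 (log2 fold change -1.02, SE 0.18, 95% interval -1.41 to -0.63, edgeR adjusted p = 0.000249). Without SVEC4-10 replicate 3 and under the other alternatives the log2 fold change stayed between -1.15 and -0.90. Eid3, which overlaps Txnrd1 on the same strand, had 7 counts over all libraries, beside 5206 for Txnrd1.

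Nqo1 went the other way. Its product is a quinone reductase that uses NADH or NADPH to reduce quinones in a single step, and the gene is a textbook NRF2 target (ENSMUSG00000003849, chromosome 8, 107388225 to 107403206, minus strand). Levels were 56.2, 54.6 and 46.2 CPM in 2H-11 and 27.1, 21.8 and 17.8 CPM in SVEC4-10. Every library of 2H-11 was well above the highest of SVEC4-10. Nqo1 was 2.23-fold higher in 2H-11 (log2 fold change 1.16, SE 0.21, 95% interval 0.72 to 1.60, edgeR adjusted p = 0.000251). The range over the alternatives was 0.96 to 1.26, all past the threshold.

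Slc7a11 was also higher in 2H-11, but only just past the threshold. It encodes xCT, the light chain of the exchanger that imports cystine for glutathione synthesis (ENSMUSG00000027737, chromosome 3, 49892526 to 50443614, minus strand), and it was the least counted of the 10 genes. There were 82, 44 and 43 counts in 2H-11, or 15.3, 10.7 and 7.38 CPM, and 28, 19 and 93 counts in SVEC4-10, or 6.54, 5.24 and 5.54 CPM. The lines did not overlap, although 2H-11 replicate 3 came close to SVEC4-10 replicate 1 and the coefficient of variation in 2H-11 was 35.6%. The log2 fold change was 0.85 (SE 0.30, 95% interval 0.21 to 1.49, edgeR adjusted p = 0.0357). The call was lost with DESeq2 (adjusted p = 0.0546), and in the authors' deposited table the adjusted p was 0.0643. It was also lost without 2H-11 replicate 1 (edgeR adjusted p = 0.204) or replicate 2 (0.08), and without SVEC4-10 replicate 1 (0.0648), 2 (0.0918) or 3 (0.125). Over all alternatives the adjusted p ran from 0.00772 to 0.204.

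The annotation adds a caution for Slc7a11. The longest of its 5 transcripts in GENCODE M21 has 9223 bases and holds a stretch of 588 bases that is 92.3% identical to Tuba1b, an alpha-tubulin, in the opposite orientation. A shorter transcript holds part of it, and the other 3 do not. In the longest transcript the stretch lies 4867 bases from the 3′ end. Tubulin reads are far more numerous than those of Slc7a11, and a strand setting of the authors' counting is not given in the sources used here. Tuba1a, with a match of 486 bases, stood at 4027, 3224 and 2894 CPM in 2H-11 and at 1191, 1466 and 1209 CPM in SVEC4-10. Tuba1b stood at 3352 ± 353 and 2746 ± 440.4 CPM (edgeR adjusted p = 0.429). Tuba1a was thus higher in 2H-11 (log2 fold change 1.29, SE 0.17, edgeR adjusted p = 7.05e-06). Tuba1c, with a match of 485 bases, was higher as well (log2 fold change 0.51, SE 0.16, edgeR adjusted p = 0.0182). The part of tubulin reads in the Slc7a11 counts was not tested.

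The subunits of glutamate-cysteine ligase, the rate-limiting enzyme of glutathione synthesis, were level between the lines. Gclc, the catalytic subunit (ENSMUSG00000032350, chromosome 9, 77754535 to 77794485, plus strand), stood at 32.7, 28.3 and 29.2 CPM in 2H-11 and at 35.5, 30.04 and 28.45 CPM in SVEC4-10. Gclm, the modifier subunit that raises its affinity for glutamate (ENSMUSG00000028124, chromosome 3, 122245557 to 122270732, plus strand), stood at 18.6, 18.3 and 27.5 CPM and at 19.9, 19.0 and 20.5 CPM. Libraries of the lines were interleaved for both, and 2H-11 replicate 3 was the single high library of Gclm. The log2 fold changes were -0.14 for Gclc (SE 0.20, 95% interval -0.57 to 0.28, edgeR adjusted p = 0.617) and 0.03 for Gclm (SE 0.24, 95% interval -0.47 to 0.52, edgeR adjusted p = 0.941).

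Peroxiredoxin 1 and its repair enzyme did not pass the threshold either. Prdx1, an abundant thiol peroxidase (ENSMUSG00000028691, chromosome 4, 116685544 to 116700822, plus strand), stood at 3199, 3163 and 2857 CPM in 2H-11 and at 3325, 3516 and 3125 CPM in SVEC4-10. Only the lowest SVEC4-10 library fell into the range of 2H-11. The log2 fold change of Prdx1 was -0.21 (SE 0.15, 95% interval -0.52 to 0.10, edgeR adjusted p = 0.286). Srxn1, sulfiredoxin, which reduces overoxidised peroxiredoxins (ENSMUSG00000032802, chromosome 2, 152105516 to 152111376, plus strand), stood at 38.5, 35.3 and 44.8 CPM against 37.4, 30.6 and 25.8 CPM. Its lines overlapped through SVEC4-10 replicate 1, and the log2 fold change was 0.27 (SE 0.21, 95% interval -0.18 to 0.71, edgeR adjusted p = 0.355). Prdx1 has 4 processed pseudogenes with stretches of at least 85% identity over 300 bases or more, none of which has a row in the table, so reads from them could be counted with Prdx1.

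**Figure D2:**
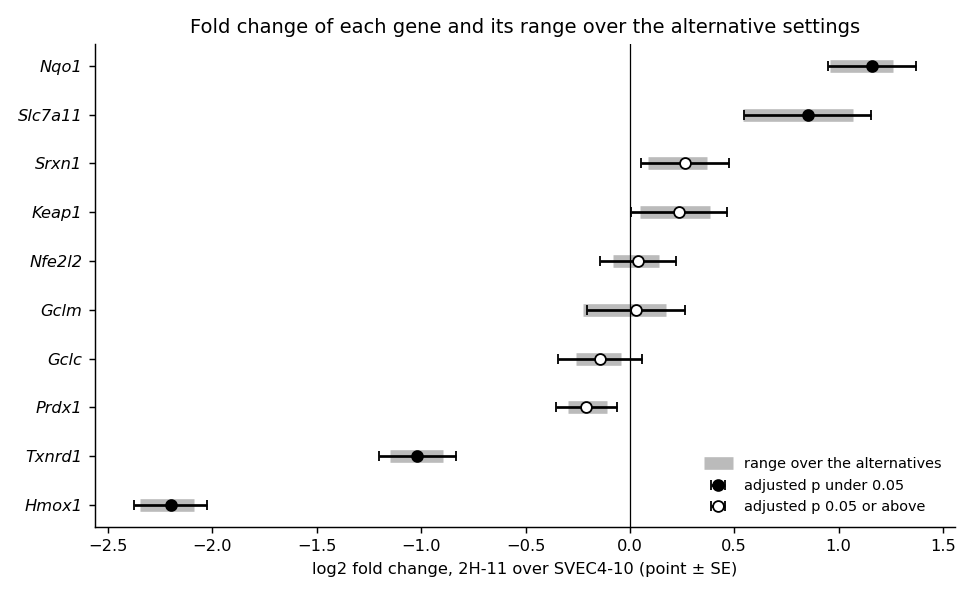
Log2 fold change of 2H-11 over SVEC4-10 (horizontal axis) for the 10 genes, with its SE, in filled circles where the adjusted p was under 0.05 and open circles where it was not. Grey bars span the values under 18 alternative settings: those of Hmox1, Txnrd1, Nqo1 and Slc7a11 stay on 1 side of 0, while those of Nfe2l2 and Gclm cross it.

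The authors' deposited table gave the same direction for 8 of the genes. Its log2 fold changes were -2.22 for Hmox1, -1.05 for Txnrd1, 1.10 for Nqo1 and 0.79 for Slc7a11. For Nfe2l2 and Gclm the authors' deposited table gave -0.003 and -0.02, where the values above were slightly positive.

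Levels of different genes were set against each other per transcript length, here the longest coding transcript in GENCODE M21. In CPM per kb, Prdx1 led in both lines with 1340 ± 81.9 in 2H-11 and 1448 ± 85.2 in SVEC4-10, followed by Hmox1 with 76.0 ± 14.5 and 326 ± 30.2. In 2H-11 the next places were taken by Nfe2l2 (34.0 ± 4.52) and Nqo1 (33.7 ± 3.46), which did not differ beyond their spread, and then by Txnrd1 (21.4 ± 2.01). In SVEC4-10 Txnrd1 came next (40.4 ± 7.51), above Nfe2l2 (31.0 ± 3.26), while Nqo1 (14.3 ± 3.01) and Srxn1 (11.1 ± 2.07) overlapped. Gclc, Keap1, Gclm and Slc7a11 were under 11 CPM per kb in every library of both lines. Direct RNA reads start at the poly(A) end and each stands for 1 molecule, so that division by length can understate long transcripts. The order depends on that division: in CPM, Txnrd1 (77.3 ± 7.27) stood above Nqo1 (52.3 ± 5.37) in 2H-11.

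The rest of the pathway was described through 9 lists with 113 different genes, of which 100 were tested. Together 29 were higher in 2H-11, 24 lower, and 47 did not pass; their median log2 fold change was -0.01. Of all genes tested 20.1% were higher and 16.2% lower, and of the Ensembl genes 13.0% and 18.8%. Medians near 0 depend on the scaling: in a fit to Ensembl genes only, that of the glutathione peroxidase and transferase list turned from -0.07 to 0.034 and that of glutathione synthesis and recycling from -0.03 to 0.073. With library size alone as the scaling they were 0.028 and 0.066. Other NRF2 targets and heme and iron genes lay on opposite sides of 0, as the plot of the lists shows.

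**Figure D3:**
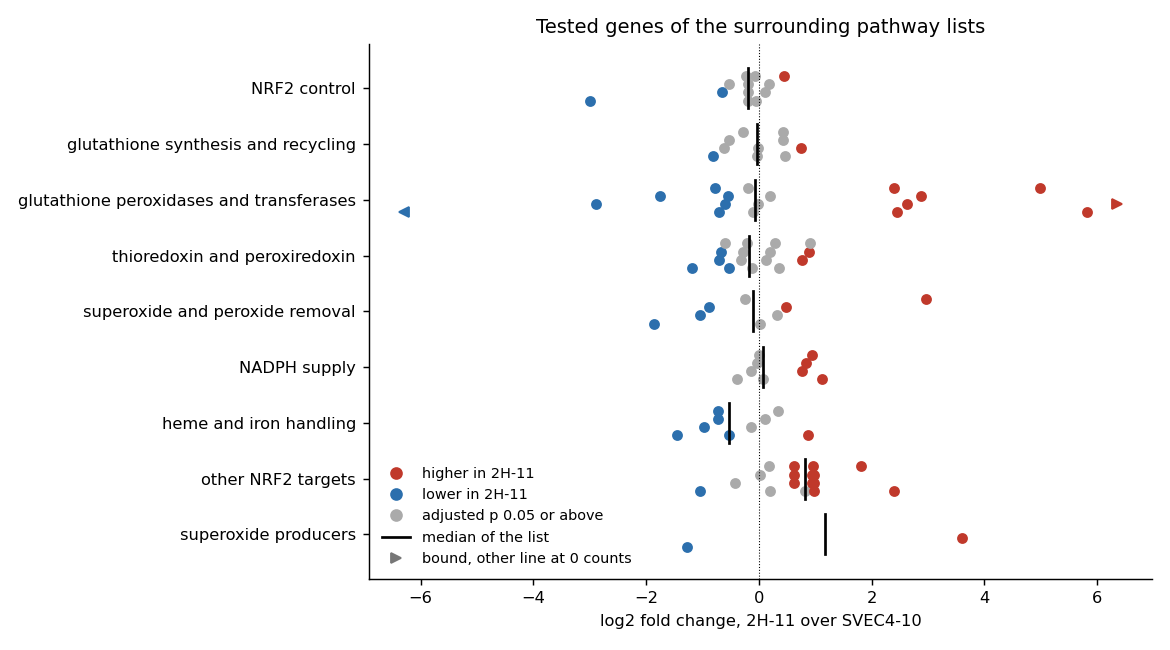
Log2 fold change of 2H-11 over SVEC4-10 (horizontal axis) for each tested gene of 9 pathway lists (rows), in red where higher in 2H-11, in blue where lower and in grey where the adjusted p was 0.05 or above; black lines are medians and triangles are bounds for Gpx3 and Gsta3, which had no count in 1 line. The other NRF2 targets lie mostly to the right of 0 and the heme and iron genes mostly to the left.

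Among 12 genes that control NRF2, 1 was higher in 2H-11, 2 lower, and 9 did not pass (median log2 fold change -0.19). Over all genes tested the shares were 20.1% higher and 16.2% lower, and over the Ensembl genes 13.0% and 18.8%. Trim21, an interferon-inducible ubiquitin ligase that binds antibodies and also acts on p62, stood at 2.61, 1.71 and 2.23 CPM in 2H-11 and at 18.7, 16.5 and 15.3 CPM in SVEC4-10. It was 8.02-fold lower (edgeR adjusted p = 3.24e-07). Dpp3, a peptidase that competes with NRF2 for KEAP1, was 1.58-fold lower (37.9 ± 1.37 against 56.6 ± 15.8 CPM, edgeR adjusted p = 0.0172), a call lost without 2H-11 replicate 2 (0.0742) or SVEC4-10 replicate 1 (0.0823). Rbx1, the RING subunit of cullin ligases and the most abundant of the list, was 1.36-fold higher (826 ± 56.8 against 567 ± 54.4 CPM, edgeR adjusted p = 0.0361). That call was kept without 2H-11 replicate 1 and lost on leaving out any of the other 5 libraries (edgeR adjusted p of 0.0513 to 0.186), without the filter (0.0988) and with the length trend removed (0.0583). Cul3, Sqstm1, Bach1 and the small MAF genes Maff, Mafg and Mafk were among those that did not pass.

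In the list of other NRF2 targets, most tested genes were higher in 2H-11. The list has 19 genes, 17 of them tested: 11 were higher and 1 lower (median log2 fold change 0.82). Of all genes tested 20.1% were higher and 16.2% lower, and of the Ensembl genes 13.0% and 18.8%. The list was chosen with earlier results of these data known, and it does not hold every NRF2 target. Hmox1 and Txnrd1, described above, were lower, while Nqo1 and Slc7a11 were higher. Heme and iron genes form a list of their own, with 5 lower and 1 higher. Cbr3, a carbonyl reductase, stood at 26.2, 27.3 and 37.4 CPM in 2H-11 and at 7.01, 6.34 and 10.2 CPM in SVEC4-10, which is 3.49-fold higher (edgeR adjusted p = 2.31e-05). Abcc3, an exporter of conjugates, was 5.27-fold higher (7.56 ± 0.931 against 1.43 ± 0.587 CPM, edgeR adjusted p = 7.16e-05). Ugdh, which makes the UDP-glucuronate used in conjugation, was 1.91-fold higher (176 ± 23.2 against 86.0 ± 13.1 CPM, edgeR adjusted p = 0.000562). The other higher genes were Abcc5, Ephx1, Cbr1, Akr1b8, Ptgr1, Adh7, Tkt and Lrp8, and the lower one was the exporter Abcg2. Esd, the most abundant, did not pass (845 ± 35.6 against 780.1 ± 62.5 CPM, edgeR adjusted p = 0.948). The count of higher genes fell to 6 without 2H-11 replicate 2 and also to 6 without SVEC4-10 replicate 3. Akr1b8 has close paralogs with which reads could be shared.

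NADPH is the electron source of thioredoxin and glutathione reductases. In a list of 9 genes of NADPH supply and linked steps, 4 were higher in 2H-11 and 0 lower by edgeR (median log2 fold change 0.07). DESeq2 and limma-voom also gave 0 lower, and 1 was lower at an unadjusted p under 0.05. The edgeR shares over all genes tested were 20.1% higher and 16.2% lower, and over the Ensembl genes 13.0% and 18.8%. Pgd, which makes NADPH in the pentose phosphate pathway, stood at 337, 268 and 239 CPM in 2H-11 and at 143, 99.2 and 121 CPM in SVEC4-10 (2.18-fold higher, edgeR adjusted p = 5.84e-05). Tkt, a transketolase of the same pathway, was 1.91-fold higher (226 ± 36.5 against 111 ± 31.1 CPM, edgeR adjusted p = 0.000956). Me1 and Mthfd1l were the other 2. Of these 4, Tkt and Mthfd1l do not make NADPH themselves. The NADPH producers Idh1, Idh2 and Nnt did not pass. In the pentose phosphate pathway, G6pdx, which catalyses the first step, had a log2 fold change of -0.14 (edgeR adjusted p = 0.618). Taldo1, the most abundant of the list, makes no NADPH either and had one of -0.38 (edgeR adjusted p = 0.0726). Taldo1 passed as lower without SVEC4-10 replicate 1 (edgeR adjusted p = 0.0332), without the filter (0.045) and with the length trend removed (0.0243), which made 1 lower gene in each.

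Genes of heme and iron handling that passed the test were mostly lower in 2H-11, as Hmox1 was. Of 9 tested, 5 were lower and 1 higher (median log2 fold change -0.53), beside 16.2% lower and 20.1% higher among all genes tested and 18.8% and 13.0% among the Ensembl genes. Lower genes numbered 2 without 2H-11 replicate 2 and 3 without SVEC4-10 replicate 1. Fth1, the heavy chain of the iron store ferritin, stood at 2875, 2689 and 2792 CPM in 2H-11 and at 6281, 4291 and 4928 CPM in SVEC4-10. It was 1.97-fold lower (edgeR adjusted p = 5.47e-05), and no library of 1 line reached the other. Ftl1, the light chain and the most abundant of the list, was 1.44-fold lower (4281 ± 286 against 5794 ± 752 CPM, edgeR adjusted p = 0.0101), a call lost without 2H-11 replicate 2 (0.0768). The biliverdin reductase genes were opposed. Blvrb was 1.83-fold higher (78.3 ± 6.33 against 40.6 ± 5.93 CPM, edgeR adjusted p = 0.00175) and Blvra 1.66-fold lower (96.6 ± 5.72 against 151 ± 26.3 CPM, edgeR adjusted p = 0.00424). The heme transporter Slc48a1 and the iron exporter Slc40a1 were the remaining lower genes. Both ferritin genes have many processed copies in the genome with which reads could be shared.

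**Figure D4:**
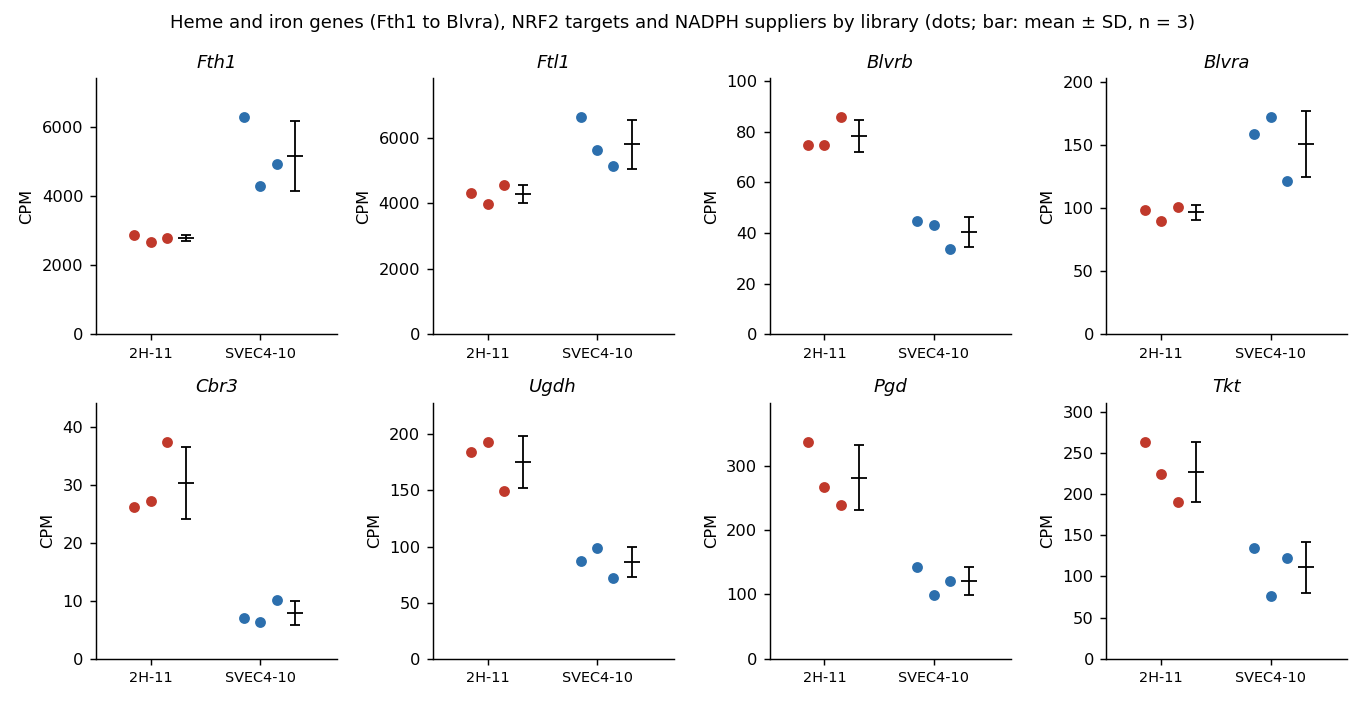
Level in CPM (vertical axis, from 0) of 4 heme and iron genes (Fth1, Ftl1, Blvrb, Blvra), 2 other NRF2 targets (Cbr3, Ugdh) and 2 genes of the NADPH list (Pgd, Tkt) in each library of 2H-11 (red) and SVEC4-10 (blue), with mean and SD (black, n = 3). Fth1, Ftl1 and Blvra lie lower in 2H-11 and the other 5 higher, with no overlap between the lines for any of the 8.

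Few genes of glutathione synthesis and recycling passed the test, 1 of 10 as higher in 2H-11 and 1 as lower (median log2 fold change -0.03). Of all genes tested 20.1% passed as higher and 16.2% as lower, and of the Ensembl genes 13.0% and 18.8%. Gss, which adds glycine in the second step of synthesis, was 1.67-fold higher (62.6 ± 4.46 against 35.3 ± 3.53 CPM, edgeR adjusted p = 0.00454). Slc3a2, the heavy chain that carries xCT and other amino acid transporters to the membrane, was 1.76-fold lower (edgeR adjusted p = 0.00248), opposite in sign to Slc7a11. Its level was 151, 112 and 114 CPM in 2H-11 and 273, 179 and 173 CPM in SVEC4-10. Glrx3, the most abundant of the list, stood at 231 ± 18.0 against 159 ± 22.1 CPM and did not pass (edgeR adjusted p = 0.0602). Glrx3 passed as higher with limma-voom (0.0444), library size alone (0.0133), Ensembl genes only (0.0169), the filter at 20 counts (0.0452), the length trend removed (0.0376) and without SVEC4-10 replicate 2 (0.0298). Without SVEC4-10 replicate 3 there were 2 higher and 3 lower genes, without replicate 2 of that line 2 higher, and without 2H-11 replicate 3 there were 2 lower.

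Glutathione peroxidases and transferases differed in both directions, some of them strongly, 7 of 18 tested genes being higher in 2H-11 and 7 lower (median log2 fold change -0.07). Among all genes tested 36.2% passed, 20.1% as higher and 16.2% as lower. Among the Ensembl genes the shares were 31.8%, 13.0% and 18.8%. Gpx7, a peroxidase of the endoplasmic reticulum, stood at 126.5, 109.1 and 111 CPM in 2H-11 and at 2.57, 4.96 and 3.10 CPM in SVEC4-10, a 31.7-fold difference (edgeR adjusted p = 6.93e-11). Gsta4, a transferase for lipid aldehydes, was 7.36-fold lower (35.9 ± 1.16 against 250.1 ± 75.9 CPM, edgeR adjusted p = 3.61e-09). Gsta3 reached 15.4 ± 4.51 CPM in SVEC4-10 and was never counted in 2H-11. With 3 counts over the 2H-11 libraries as the limit that 0 counts allow (0.196 CPM, counting error only), it was at least 78.4-fold lower in 2H-11. The bound was 50.9 without 2H-11 replicate 1 and 48.5 without replicate 3. Gpx4, the most abundant and the peroxidase that protects membrane lipids, was 1.71-fold lower (1030.0 ± 36.2 against 1649 ± 89.5 CPM, edgeR adjusted p = 0.000441). Transferases of the alpha and mu classes are alike in sequence, so their counts are uncertain. The median was the same with Gsta3 and Gpx3, the genes at 0 in 1 line, set to their bounds. This was so by construction, since both stayed at the ends of the list.

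Around Txnrd1 and Prdx1, 2 of 16 tested thioredoxin and peroxiredoxin genes were higher in 2H-11 and 4 lower (median log2 fold change -0.17). The shares were 20.1% higher and 16.2% lower over all genes tested, and 13.0% and 18.8% over the Ensembl genes. Msrb3, a methionine sulfoxide reductase, stood at 28.3, 24.6 and 14.8 CPM in 2H-11 and at 37.4, 44.4 and 60.1 CPM in SVEC4-10 (2.28-fold lower, edgeR adjusted p = 0.00107). Its selenoprotein relative Msrb1 was 1.69-fold higher (93.2 ± 8.27 against 51.7 ± 5.53 CPM, edgeR adjusted p = 0.00264). Prdx5 was 1.64-fold lower (314 ± 21.1 against 487 ± 93.0 CPM, edgeR adjusted p = 0.00195), and Prdx3 and Sesn1 were the other lower genes. Txnrd2, the mitochondrial reductase, was higher, opposite in sign to Txnrd1 (13.8 ± 3.70 against 7.26 ± 2.30 CPM, edgeR adjusted p = 0.0267). Txn1, the substrate of TXNRD1 and the most abundant of the list, stood at 1399 ± 166 and 1075 ± 74.5 CPM and did not pass (edgeR adjusted p = 0.175). The higher genes numbered 1, namely Msrb1, without 2H-11 replicate 3 or SVEC4-10 replicate 2 or 3, where Txnrd2 lost its call. The lower genes numbered 2 without 2H-11 replicate 2 or 3. With library size alone as the scaling 4 were higher, Txn1 among them (edgeR adjusted p = 0.0333).

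Of 8 genes that remove superoxide and peroxide or carry selenium, 2 were higher in 2H-11 and 3 lower (median log2 fold change -0.11), the remaining lower ones being Ccs and Selenow. Among all genes tested 20.1% were higher and 16.2% lower, and among the Ensembl genes 13.0% and 18.8%. Sod3, the secreted superoxide dismutase, stood at 35.4, 43.6 and 41.2 CPM in 2H-11 and at 5.14, 6.06 and 3.93 CPM in SVEC4-10 (7.78-fold higher, edgeR adjusted p = 4.42e-08). Selenop, a secreted selenium carrier, was 3.63-fold lower (42.5 ± 9.64 against 145.5 ± 60.0 CPM, edgeR adjusted p = 8.88e-06). Park7, an oxidant-sensitive chaperone and the most abundant, was 1.39-fold higher (474 ± 20.6 against 320.3 ± 8.61 CPM, edgeR adjusted p = 0.0197), and this call was lost without 2H-11 replicate 1 or 2 or SVEC4-10 replicate 1 or 3 (0.0529 to 0.099), without the filter (0.0849) and with the length trend removed (0.151). Sod1, Sod2 and Cat, the main intracellular scavengers, did not pass.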

How the data were processed

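Direct RNA libraries of 3 samples per line were prepared from 1 ug of total RNA, per the labels' protocols. Genome builds mm10 and GRCm38 are named in the submitters' processing notes; an aligner, counter, annotation or strand setting was not given in the sources used here. Raw read counts per gene were deposited by the authors together with the same values as CPM and with DESeq2 fold changes. In total 13 broken lines naming no gene were left out. The members and gene lists were chosen with earlier results of these data known.

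Counts were compared with edgeR 4.0.16 in R 4.3.3: filterByExpr (minimum count 10, minimum total 15), TMM scaling and the quasi-likelihood test with line as the only term. SEs are the log2 fold change over the square root of F. Named genes were all members and, per list, the 2 genes with the smallest p (3 in lists of over 15) and the most abundant; others were chosen after their values were seen. Where 2 identifiers shared a symbol (Nnt, Ddit3), the one with more counts was used.

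Alternatives were DESeq2 1.42.0, limma-voom (limma 3.58.1), a block for replicate number, scaling by RLE or by library size alone, a filter at 20 counts in 3 libraries or none, robust dispersion, a fit to Ensembl genes only or without genes for ribosomal proteins and mitochondrial transcripts, random thinning of all libraries to equal depth, leaving out each library and, added after seeing the data, removal of a trend with transcript length. Coordinates are from GENCODE M21 (22022 of 22036 Ensembl identifiers found).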

Additional observations from a re-analysis of the deposited data

How the results depend on the processing

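Over 18 alternatives, 164 of 180 log2 fold changes of the 10 genes kept their direction and their side of the threshold. Those of Hmox1, Txnrd1, Nqo1, Gclc, Keap1, Prdx1 and Srxn1 did so under all 18. Values near 0 changed sign: Nfe2l2 was at -0.033 without the filter and -0.014 after thinning, and between -0.083 and 0.12 on leaving out a library; Gclm was at -0.0029 with limma-voom and -0.053 without the filter, and between -0.23 and 0.12 on leaving out a library. None of these passed the threshold. Slc7a11 lost its call with DESeq2 (0.84), and on leaving out a library its log2 fold change ran from 0.54 to 1.07. The genes called higher then numbered 1 with DESeq2 and 1 to 2 on leaving out a library, and those called lower 2 throughout. Esd, not called in any fit, was at -0.058 without the filter and between -0.086 and 0.070 on leaving out a library. The calls among all genes were 1657 higher and 1631 lower with Ensembl genes only, against 2645 and 2133; this fit moved the median log2 fold change of Ensembl genes from -0.10 to -0.001. Pathway genes called on leaving out a library were 22 to 27 higher and 16 to 26 lower. With the motif extended by 1 letter (A after the final C), a stricter search by construction, 1 of the 8 genes held a match (Txnrd1). Among all genes with a window 3.45% did. With the C at position 4 freed, 7 of the 8 genes held a match, beside 45% of all genes with a window.

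Same-numbered libraries of the lines did not deviate together (correlations of -0.03, 0.05 and -0.01, across genes), so the numbers were not taken as pairs. With a block for replicate number 2491 genes were higher and 1970 lower, and of the 10 genes 1 was higher: Slc7a11 had a log2 fold change of 0.78 (adjusted p = 0.0526). It was not the case that each library correlated best with its own number. Slc7a11 had the fewest counts of the 10 genes, 19 to 93 per library, and kept its call after thinning.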

Other observations

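Most genes for sources of superoxide were sparsely counted in both lines. Of 9 such genes only 2 had enough counts to be tested, and Cybb, the catalytic subunit of the phagocyte oxidase, had no count in any library. Cyba, the membrane partner subunit shared by several NADPH oxidases, stood at 169, 165 and 174 CPM in 2H-11 and at 15.7, 9.65 and 13.6 CPM in SVEC4-10, a 12.2-fold difference (edgeR adjusted p = 1.88e-10). Xdh, xanthine dehydrogenase, was 2.42-fold lower in 2H-11 (16.8 ± 3.20 against 38.2 ± 12.4 CPM, edgeR adjusted p = 0.000378).

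Some genes of stress and handling also differed, and their part in the results was not tested. Of 7 such genes 2 were higher in 2H-11 and 2 lower. On leaving out any library but SVEC4-10 replicate 1, only 1 was lower. Over all genes tested 20.1% were higher and 16.2% lower, and over the Ensembl genes 13.0% and 18.8%. Ddit3, a transcription factor of the unfolded protein and amino acid responses, was 3.71-fold lower (42.4 ± 2.49 against 147 ± 16.9 CPM, edgeR adjusted p = 1.85e-07). The heat-shock gene Hspa1b was 13.5-fold higher (7.54 ± 0.302 against 0.446 ± 0.161 CPM, edgeR adjusted p = 1.32e-06), and its count is uncertain, since reads could be split with its near-identical neighbour Hspa1a. Gpx3, a secreted glutathione peroxidase chosen after its values were seen, reached 11.2, 10.96 and 7.55 CPM in 2H-11 while SVEC4-10 gave no read of it. The difference was at least 81.5-fold, with 3 counts over the SVEC4-10 libraries as the limit (0.121 CPM), and at least 26.1-fold without SVEC4-10 replicate 3.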
